A study of Rattus norvegicus with 18 samples.

Results

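The comparison described here set neonatal rat ventricular cardiomyocytes infected with an adenovirus carrying sORF8, a short open reading frame, against the same cells infected with the control virus assigned to it. It takes 6 of the 18 libraries in the series, 3 with sORF8 and 3 with its control virus, chosen by their sample titles, and it covers all 14870 genes that passed a filter on low counts out of 19880 listed. All cells were ventricular cardiomyocytes of Sprague-Dawley rats, isolated on postnatal day 2. A plating step of 1 h had served to take out cells other than cardiomyocytes, and the cultures were kept in medium with 10% fetal bovine serum. Every culture in both groups had received phenylephrine (PE) at 20 µM for 24 h, so no library here shows the cells without PE. The sources used here do not give the sequence or peptide of sORF8, the promoter in the virus, the virus dose or what the control virus carried, so delivery of sORF8 could not be checked in these data. Nothing in them ties the 3 libraries of a group to separate cultures or litters, so the p-values rest on the spread among libraries, which could be purely technical. The 12 remaining libraries belong to experiments with 2 other reading frames, sORF6 and sORF7, each with 3 libraries of the sORF and 3 of a control virus of its own.

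A short open reading frame is a stretch of RNA that can be translated into a small peptide, and several such peptides in heart muscle act on calcium pumps or mitochondria. Phenylephrine activates alpha-1 adrenergic receptors, which drive hypertrophic growth of cardiomyocytes: the cells enlarge, add sarcomeres and raise a fetal program that includes natriuretic peptides and beta myosin heavy chain. Neonatal cells in culture still express much of that fetal program. The gene groups below are ordered from the contractile apparatus and its energy supply to lipid synthesis, protein folding, redox defence, growth control and inflammation.

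With sORF8, many genes of the sarcomere and of cholesterol synthesis and some of fatty acid synthesis and the endoplasmic reticulum chaperones were higher than with the control virus, while some heat shock chaperones and antioxidant enzymes were lower. The changes were small. Of 14870 genes, 558 (3.75%) were called at an adjusted p under 0.05 by the quasi-likelihood test of edgeR with Benjamini-Hochberg adjustment, 302 higher (2.03%) and 256 lower (1.72%) with sORF8. The median size of a called change was 0.26 on the log2 scale, or 1.195-fold, and 11 called genes changed at least 2-fold. Among all genes tested the median log2 fold change was 0.00, and 2468 genes had an unadjusted p under 0.05. In 24.5% of all genes tested the 3 sORF8 libraries and the 3 control libraries did not overlap, 11.6% with sORF8 above and 12.9% with sORF8 below. All 558 called genes were among these.

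**Figure D1:**
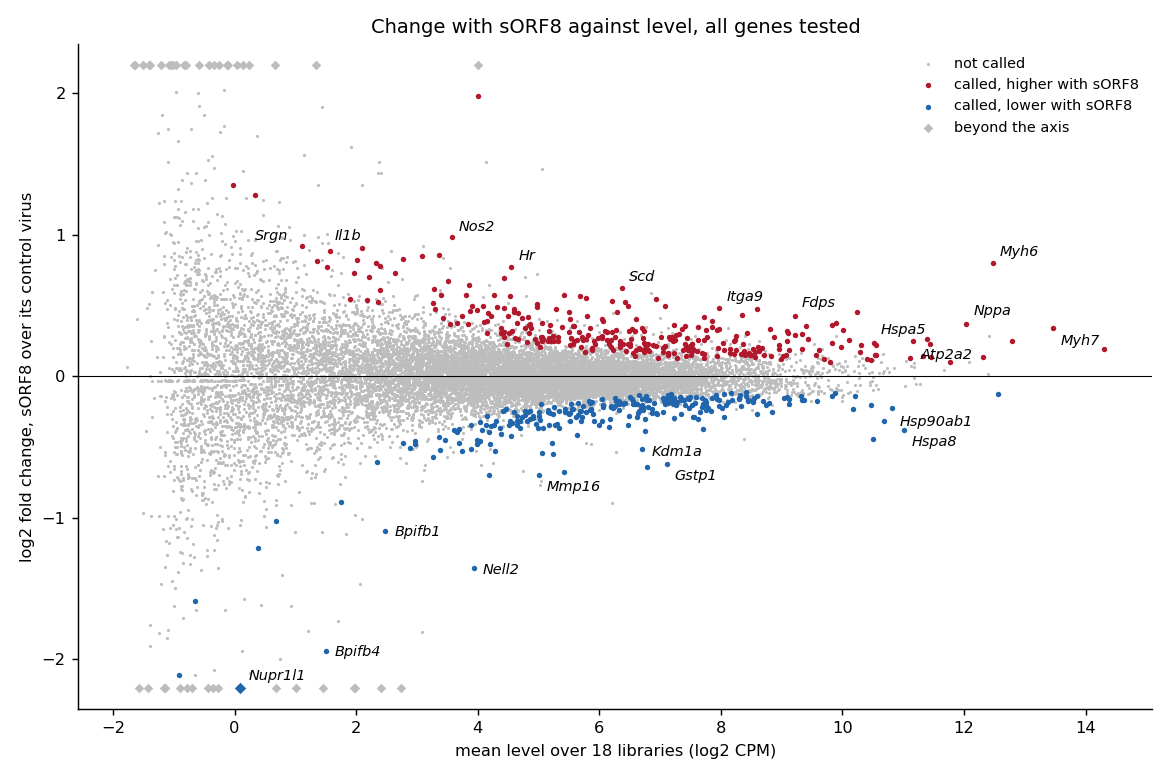
Each point is 1 of the 14870 genes tested: the horizontal axis gives the mean level over 18 libraries (log2 CPM) and the vertical axis the log2 fold change of sORF8 over its control virus. Red points are the called genes that were higher with sORF8, blue points those that were lower, grey points were not called, and diamonds at the edge mark 44 genes beyond 2.2 in either direction, of which 1, Nupr1l1, was called. Most called genes lie within 1 log2 unit of 0, with Myh6 standing out among the abundant genes and Bpifb4 and Nell2 among the genes that were lower.

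Counts summed to 16186110 to 16283938 per library with sORF8 and to 15697177 to 15866402 with its control virus, while the remaining 12 libraries held 17299568 to 17658137. The 6 libraries of the sORF8 experiment stood apart from the other 12 on the first principal component of expression, which carried 42.0% of the variance, and 42.8% of all genes tested differed between the sORF8 control and the mean of the other 2 control groups (edgeR, adjusted p under 0.05). For this reason many of the levels below are given beside those of the sORF6 and sORF7 control libraries. The sORF8 control libraries enter both comparisons, so a place of sORF8 between its control and the other controls is not a separate result. No cause of that separation was tested. The labels do not say whether the experiments were cultured or sequenced together. Libraries within each group differed by more than sampling noise. Replicate 2 of the sORF6 control and replicate 1 of the sORF7 control stood farther from their group than others did, and without both of them 988 genes were called for sORF8, the 558 among them.

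Markers of the labelled cell type were present throughout. All 17 cardiomyocyte markers were measured, and Actc1, the cardiac alpha actin, alone took 1.70% to 1.72% of the counts with sORF8 and 1.49% to 1.52% with the control virus. Cardiomyocyte markers were higher with sORF8: 10 of 17 passed the test and none was lower, against 2.03% and 1.72% of all genes. The median log2 fold change of the 17 markers was 0.23. Their summed level was 56702 to 58548 normalised CPM (CPM, the read count per library scaled by the TMM method) with sORF8 and 47091 to 47563 with its control virus, and it was 68314 to 76447 in the sORF6 and sORF7 control libraries. In these bulk samples, fewer cardiomyocytes and less cardiomyocyte RNA per cell cannot be told apart. Markers of other cell types showed few calls. Of 15 fibroblast markers, 14 endothelial markers and 13 leukocyte markers tested, none was called in either direction. The summed fibroblast level was 7953 to 8340 normalised CPM with sORF8, 7888 to 8055 with the control virus and 7961 to 9025 in the other controls, and no marker measured on the cell type lists was at 0 over the 6 libraries. Endothelial markers summed to 384 to 389 CPM with sORF8 and 370.0 to 384 CPM with the control virus. Leukocyte markers summed to 154 to 191 CPM with sORF8 and 153 to 161 CPM with the control virus. Of 14 smooth muscle and pericyte markers 1 was higher, Acta2, with sums of 5739 to 6041 CPM with sORF8 and 5474 to 5727 CPM with the control virus. Of 12 epicardial markers 1 was lower, Tbx18. None of the 8 Schwann cell markers and 5 erythroid markers tested was called. The count of cardiomyocyte markers called was 6, 5 and 6 without sORF8 library 1, 2 or 3 and 5, 6 and 6 without control library 1, 2 or 3, while it was 17 of 17 in a fit to these 6 libraries alone.

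**Figure D2:**
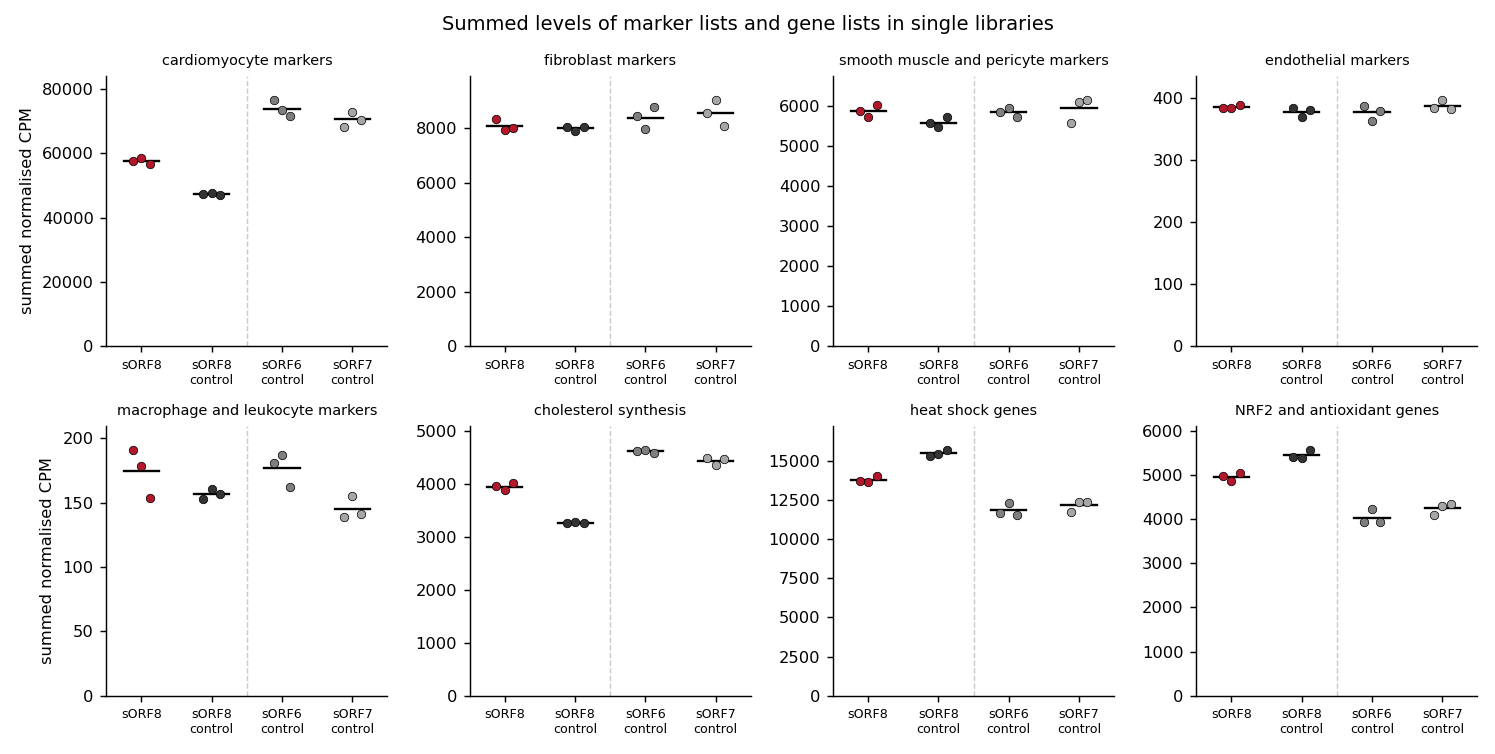
Each panel gives the summed level of 1 of 8 gene lists (normalised CPM, axis from 0) in single libraries, with points for libraries and a bar for the mean of 3, in the order sORF8, sORF8 control, sORF6 control and sORF7 control. Cardiomyocyte markers and cholesterol synthesis genes summed higher with sORF8 than with its control and below the other 2 controls, heat shock and antioxidant genes summed lower with sORF8 than with its control and above the other 2, and the fibroblast panel is level across groups.

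Myosin heavy chain genes were higher with sORF8, above all Myh6, which encodes alpha myosin heavy chain, the fast cardiac motor that gives way to the beta form, Myh7, when rodent heart muscle turns to the fetal program. Myh6 (gene ID 29556, chromosome 15 from 33605653 to 33634249 in Rnor_6.0) stood at 4999.8, 5111 and 4548 CPM with sORF8, against 2763, 2821 and 2827 CPM with its control virus. All 3 sORF8 libraries lay above all 3 of the control, and the log2 fold change was 0.80 ± 0.07 (SE; edgeR, adjusted p = 2.19e-06). Both sets lay below the sORF6 and sORF7 control libraries, at 5826 to 7649 CPM. Myh7, the beta chain, was also higher, at 10199, 10409 and 9636 CPM with sORF8, against 7870.4, 8123 and 7914 CPM with its control virus, a log2 fold change of 0.34 ± 0.06 (edgeR, adjusted p = 0.00291). Here too both sets lay below the sORF6 and sORF7 control libraries, at 11445 to 14569 CPM. The alpha and beta chains are close paralogs whose reads can be split between them in counting, so the size of each change is uncertain. Whether the rises of the 2 differ was not tested.

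Natriuretic peptides, hormones that stressed cardiomyocytes secrete, rose as both myosins did. Nppa, which encodes atrial natriuretic peptide (gene ID 24602, chromosome 5 from 164808407 to 164809716 in Rnor_6.0), measured 4755, 4782 and 4923 CPM with sORF8, against 3783, 3734 and 3671 CPM with its control virus. Its log2 fold change was 0.37 ± 0.05 (edgeR, adjusted p = 4.77e-04), and the sORF6 and sORF7 controls ran from 3529 to 4720.4 CPM, so the sORF8 libraries stood above every control library of the series. Nppb, for B-type natriuretic peptide, reached 1083, 1107 and 1063 CPM with sORF8, against 869, 872 and 850.1 CPM with its control virus, a change of 0.33 ± 0.06 (edgeR, adjusted p = 0.00414), within the 959 to 1238 CPM of the other controls. Ankrd1, a stretch-responsive cofactor at the Z-disc, was higher by 0.25 ± 0.04 (edgeR, adjusted p = 0.00132), with 6558, 6406 and 6272 CPM with sORF8, against 5331, 5392 and 5426 CPM with its control virus. Acta1, the skeletal alpha actin of the fetal program, did not pass the test, with 929.9, 908 and 909 CPM with sORF8, against 832, 831 and 891 CPM with its control virus and a log2 fold change of 0.10 ± 0.05 (edgeR, adjusted p = 0.329). Ankrd1 and Acta1 stood higher in the sORF6 and sORF7 controls than with sORF8, at 7400 to 8818 and 1789 to 2203 CPM. Over the list of 20 hypertrophy and fetal genes, 7 rose and 1 fell, against 2.03% and 1.72% of all genes. The remaining 12 did not pass, and the median log2 fold change of the list was 0.10. Besides Nppa, Nppb, Myh7 and Ankrd1 the risers were Acta2, Tnni1 and Myl7, between 0.22 and 0.45, and the gene that fell was Uchl1, a deubiquitinating enzyme, by 0.29 ± 0.06.

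Sarcomere genes that passed the test were all higher. Of 22 thick and thin filament genes, 11 rose and none fell, against 2.03% and 1.72% of all genes, and the list median was 0.15. Of the 22, 10 are also among the 17 cardiomyocyte markers and 5 on the hypertrophy list, so these counts are not separate. The summed level of the cardiomyocyte markers, 56702 to 58548 CPM with sORF8 and 47091 to 47563 CPM with its control virus, moved with these genes, and its part in their change was not tested. The ventricular light chain Myl2 stood at 810.1, 833 and 806 CPM with sORF8, against 589, 601 and 600.1 CPM with its control virus, a log2 fold change of 0.45 ± 0.06 (edgeR, adjusted p = 2.14e-04). Tmod1, tropomodulin, which caps the pointed ends of thin filaments, showed 167, 169.8 and 163 CPM with sORF8, against 136, 139 and 123 CPM with its control virus and changed by 0.33 ± 0.04 (edgeR, adjusted p = 8.78e-05). In both genes the sORF8 values lay between the control and the other 2 control groups, which held 1343 to 1716 CPM for Myl2 and 243 to 259 CPM for Tmod1. The remaining risers were Mylk3, Tnni1, Mybpc3, Myl3, Myl7, Actc1 and Tpm1, with log2 fold changes of 0.14 to 0.45; actin and tropomyosin genes have near-identical relatives, so their counts carry the same uncertainty as the myosins. The count was 7, 6 and 6 without sORF8 library 1, 2 or 3 and 6, 8 and 5 without control library 1, 2 or 3.

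Z-disc and M-band genes, whose proteins anchor thin and thick filaments, gave 9 risers and 1 gene that fell among 24. This compares with 2.03% and 1.72% of all genes, and the list median was 0.15. Myom1, the M-band protein myomesin, measured 562, 559 and 526 CPM with sORF8, against 440.0, 429 and 419 CPM with its control virus, a log2 fold change of 0.35 ± 0.04 (edgeR, adjusted p = 7.65e-06), and its paralog Myom2 changed by 0.48 ± 0.07 (edgeR, adjusted p = 3.10e-04). Actn2, the sarcomeric alpha-actinin that crosslinks actin at the Z-disc, had 2133, 2160.0 and 2097 CPM with sORF8, against 1757, 1788 and 1780.0 CPM with its control virus and a change of 0.26 ± 0.03 (edgeR, adjusted p = 2.77e-05). The sORF6 and sORF7 controls stood above sORF8, at 744 to 839 CPM for Myom1, 391 to 490 for Myom2 and 3005 to 3215 for Actn2. The other risers, apart from Ankrd1, were Ldb3, Pdlim3, Csrp3, Synpo2l and Synpo2, at 0.16 to 0.22. Lmcd1, a LIM protein that promotes calcineurin signalling in mouse heart, went the other way, with 108, 108 and 111 CPM with sORF8, against 126, 131 and 127 CPM with its control virus and a change of -0.23 ± 0.03 (edgeR, adjusted p = 5.26e-04). With any 1 of the 6 libraries left out, 7 genes of the list were called higher.

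**Figure D3:**
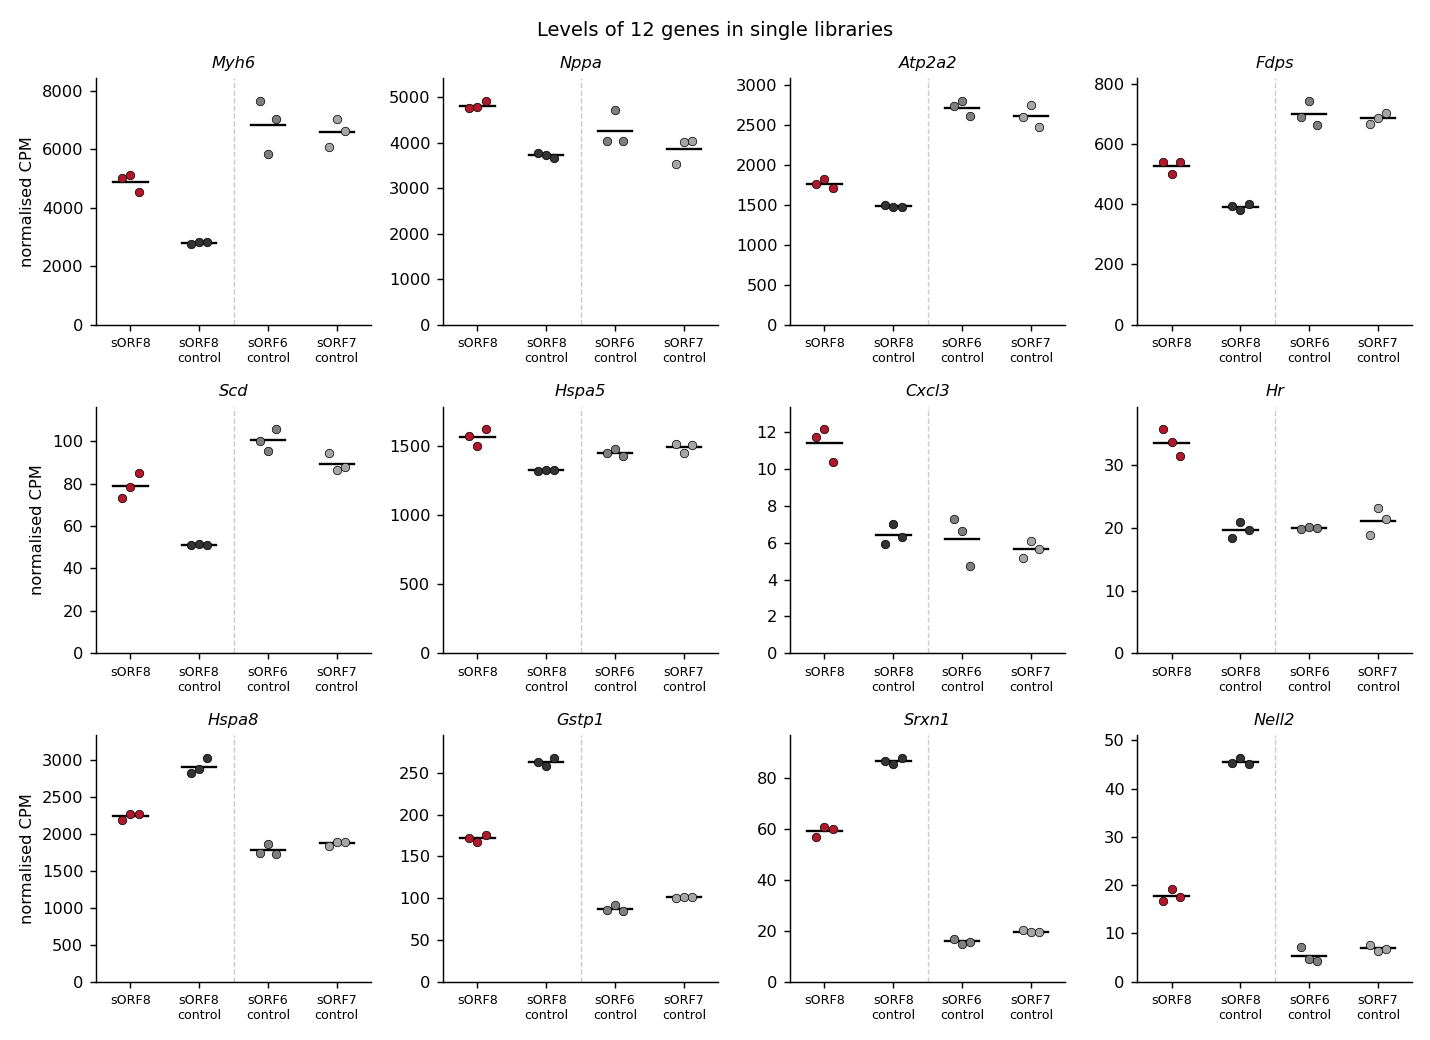
Normalised CPM (axis from 0) of 12 genes in single libraries, with points for libraries and a bar for the mean of 3, ordered as sORF8, sORF8 control, sORF6 control and sORF7 control. In all 12 genes the sORF8 points do not overlap those of the sORF8 control: the first 8 panels are higher with sORF8 and the last 4 lower, and in Cxcl3 and Hr the 3 control groups lie at like levels.

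Few calcium cycling genes changed. Of 23, 3 rose and none fell, against 2.03% and 1.72% of all genes, and the median was 0.07. Atp2a2, the SERCA pump that refills the sarcoplasmic reticulum, stood at 1762, 1827 and 1709 CPM with sORF8, against 1498, 1478 and 1477 CPM with its control virus, a change of 0.25 ± 0.04 (edgeR, adjusted p = 4.77e-04), beside 2475 to 2802 CPM in the sORF6 and sORF7 controls. Casq2, the calcium-storing calsequestrin, had 869, 887 and 869.7 CPM with sORF8, against 726, 729 and 737 CPM with its control virus and changed by 0.26 ± 0.03 (edgeR, adjusted p = 6.34e-05). Hrc, the histidine-rich calcium-binding protein of the same store, had 18.9, 18.6 and 21.2 CPM with sORF8, against 13.8, 14.4 and 13.1 CPM with its control virus and the largest change of the 3, 0.51 ± 0.08 (edgeR, adjusted p = 0.00131). Each of the 3 was lower in both groups of the sORF8 experiment than in every library of the other controls. Srl, which encodes sarcalumenin, another calcium-binding protein of that compartment, was not on the list but ranked among the smallest p-values, with 728, 736 and 722 CPM with sORF8, against 550.0, 582 and 565 CPM with its control virus and a change of 0.37 ± 0.03 (edgeR, adjusted p = 9.94e-07). In the sORF6 and sORF7 controls Srl stood higher, at 1038 to 1100 CPM. Of 28 channel, junction and desmosome genes 3 rose and none fell, among them Cacna1g, a T-type calcium channel, by 0.44 ± 0.06, and Kcnh2, the hERG potassium channel, by 0.23 ± 0.04 (edgeR, adjusted p = 1.14e-04 and 0.00459). Tnni3k, a kinase found in cardiomyocytes, also rose, with 51.3, 53.5 and 51.7 CPM with sORF8, against 35.2, 36.4 and 36.6 CPM with its control virus and a change of 0.53 ± 0.05 (edgeR, adjusted p = 2.47e-06). It too stood higher in the sORF6 and sORF7 controls, at 84.2 to 98.0 CPM.

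Few genes of energy metabolism passed the test. Of 49 nuclear genes for respiratory chain and ATP synthase subunits, 5 rose and none fell, against 2.03% and 1.72% of all genes. A log2 fold change above 0 was found in 47 of the 49, with a list median of 0.11. The 5 that rose were Cox7b, Uqcrh, Ndufa6, Atp5f1b and Sdha, subunits of complex IV, complex III, complex I, ATP synthase and complex II, with changes of 0.14 to 0.29. Cox7b measured 119, 117 and 120.4 CPM with sORF8, against 97.5, 99.7 and 94.00 CPM with its control virus, beside 156 to 196 CPM in the other controls. The count of genes called higher was 1, 0 and 0 without sORF8 library 1, 2 or 3 and 1, 2 and 0 without control library 1, 2 or 3, and 18 in a fit to the 6 libraries alone. In fatty acid uptake and oxidation 2 of 33 genes rose, Fabp3, the heart fatty acid binding protein, by 0.31 ± 0.06, and Acsl1, which activates fatty acids, by 0.15 ± 0.04 (edgeR, adjusted p = 0.00459 and 0.0292). In glycolysis 2 of 26 rose, Ldhb and Pfkm, by 0.32 ± 0.05 and 0.19 ± 0.04 (edgeR, adjusted p = 0.0012 and 0.0181). Both are the forms found in heart and muscle.

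Most cholesterol synthesis genes rose. These genes encode the enzymes that turn acetyl-CoA into sterol, and they are switched on together by the transcription factor SREBP-2 when membranes are short of sterol. Of 25 members, 16 rose and none fell, against 2.03% and 1.72% of all genes. All 25 had a log2 fold change above 0, and the median was 0.26. Fdps, farnesyl diphosphate synthase (gene ID 83791, chromosome 2 from 188403595 to 188413219 in Rnor_6.0), stood at 541, 499 and 541 CPM with sORF8, against 394, 382 and 400.0 CPM with its control virus, a change of 0.43 ± 0.05 (edgeR, adjusted p = 1.59e-05). Hmgcs1, which makes HMG-CoA at the start of the pathway, had 576, 541 and 573 CPM with sORF8, against 447, 473 and 461 CPM with its control virus and changed by 0.29 ± 0.04 (edgeR, adjusted p = 8.78e-05). In both genes the 3 sORF8 libraries lay above the 3 control libraries, and in both they lay below the other controls, which held 662 to 743 CPM of Fdps and 601 to 696 CPM of Hmgcs1.

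The promoters of these 2 genes are shown because 14 of the 17 list members with a promoter in the table used here hold a CCAAT box, the site of NF-Y, a factor that works beside SREBP at sterol genes. The sequences are the 250 bases before the gene start in RefSeq's GRCr8 assembly, 5′ to 3′ on the gene's strand, with each CCAAT, or ATTGG where it is on the other strand, in capitals. They lie at chr2:176804817-176805066, minus strand, for Fdps and at chr2:53382054-53382303, plus strand, for Hmgcs1.
Fdps: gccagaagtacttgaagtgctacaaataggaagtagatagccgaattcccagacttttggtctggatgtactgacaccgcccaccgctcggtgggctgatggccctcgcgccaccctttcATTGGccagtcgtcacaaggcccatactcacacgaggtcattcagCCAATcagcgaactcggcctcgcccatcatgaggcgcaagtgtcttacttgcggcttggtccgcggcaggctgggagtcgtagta
Hmgcs1: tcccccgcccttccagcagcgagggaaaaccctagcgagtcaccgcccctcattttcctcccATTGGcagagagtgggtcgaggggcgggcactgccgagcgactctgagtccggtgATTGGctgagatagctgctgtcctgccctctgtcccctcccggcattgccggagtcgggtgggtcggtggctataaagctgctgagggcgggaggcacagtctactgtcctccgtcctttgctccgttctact
The boxes lie between 130 and 81 bases before the start in Fdps and between 188 and 129 bases in Hmgcs1, 2 in each. Among the 16 members that rose, 12 had a promoter in the table and 9 of them held the motif, while 34.0% of all 33469 promoters of this length and 36.7% of the 11467 tested genes with a promoter did. A match is a description of letters, and binding was not measured.

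Genes for other steps of the pathway rose as well. Idi1, the isopentenyl diphosphate isomerase, had 239.5, 234 and 243 CPM with sORF8, against 191, 194 and 186 CPM with its control virus, and Fdft1, squalene synthase, had 181, 184 and 189 CPM with sORF8, against 153, 151 and 152 CPM with its control virus. Their changes were 0.33 ± 0.04 and 0.28 ± 0.03 (edgeR, adjusted p = 7.04e-05 and 6.34e-05). Sc5d, which acts near the end of sterol synthesis, had 159, 161 and 168 CPM with sORF8, against 132, 132 and 123 CPM with its control virus and changed by 0.34 ± 0.04 (edgeR, adjusted p = 3.45e-05). The other risers included the enzymes Acat2, Sqle, Lss, Cyp51, Nsdhl, Hsd17b7 and Dhcr7, the sterol sensor Insig1 and Srebf2, the gene of SREBP-2 itself, with changes of 0.18 to 0.39. The summed level of the list was 3879 to 4018 normalised CPM with sORF8 and 3264 to 3278 with its control virus, and it was 4359 to 4642 in the other controls. With 1 library left out, 13 to 16 genes of the list were called higher.

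Some fatty acid synthesis genes rose. Of 21 genes 6 rose and none fell, against 2.03% and 1.72% of all genes, with a median of 0.16. Scd, a stearoyl-CoA desaturase, had 73.1, 78.3 and 85.1 CPM with sORF8, against 50.8, 51.4 and 50.9 CPM with its control virus, a change of 0.63 ± 0.06 (edgeR, adjusted p = 6.12e-06). Fads1, the delta-5 desaturase, had 97.98, 105 and 104 CPM with sORF8, against 68.7, 66.01 and 75.4 CPM with its control virus and changed by 0.55 ± 0.05 (edgeR, adjusted p = 4.04e-06). Scd2 and Acss2, an acetyl-CoA synthetase, changed by 0.38 ± 0.03 and 0.40 ± 0.06 (edgeR, adjusted p = 1.70e-06 and 3.50e-04), and Fads2 and Acacb, an acetyl-CoA carboxylase, by 0.34 ± 0.06 and 0.30 ± 0.07 (edgeR, adjusted p = 0.00184 and 0.0247). The Scd genes are similar in sequence, so reads may be shared between them. In each of these 6 genes the mean with sORF8 lay between that of its control and those of the other 2 control groups.

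Some heat shock chaperones fell and some chaperones of the endoplasmic reticulum rose. Heat shock proteins of the cytosol keep proteins folded and are induced by the factor HSF1. Of 27 heat shock genes 11 fell and none rose, against 1.72% and 2.03% of all genes, with a median log2 fold change of -0.15. Hspa8, the constitutive Hsc70 chaperone (gene ID 24468, chromosome 8 from 44989281 to 44993261 in Rnor_6.0), stood at 2183, 2265 and 2268 CPM with sORF8, against 2826, 2881 and 3032 CPM with its control virus, a change of -0.38 ± 0.03 (edgeR, adjusted p = 1.70e-06). Hsp90ab1, cytosolic Hsp90 beta, had 1998, 1998 and 2104 CPM with sORF8, against 2355, 2379 and 2393 CPM with its control virus and changed by -0.22 ± 0.03 (edgeR, adjusted p = 5.53e-05). Dnaja1, a J-domain partner of Hsp70, had 215, 205 and 214 CPM with sORF8, against 256, 266 and 259.9 CPM with its control virus and changed by -0.30 ± 0.04 (edgeR, adjusted p = 6.22e-05). In all 3 genes the sORF8 libraries lay between the control, which was higher, and the other controls, which were lower at 1731 to 1893 CPM for Hspa8, 1575 to 1633 for Hsp90ab1 and 161 to 182 for Dnaja1. Hsph1, the Hsp110 exchange factor, had 215, 207 and 212 CPM with sORF8, against 241, 256 and 244 CPM with its control virus and changed by -0.23 ± 0.03 (edgeR, adjusted p = 5.80e-04). The others that fell were Hspa4l, Hsp90aa1, Hspb8, Chordc1, Stip1, Dnajb4 and the mitochondrial Hspd1, with changes of -0.31 to -0.15. Hspa1a, the strongly inducible Hsp70, was low and scattered, with 3.23, 2.43 and 5.09 CPM with sORF8, against 3.73, 6.51 and 9.91 CPM with its control virus, and did not pass (log2 fold change -0.90 ± 0.61, edgeR, adjusted p = 0.499); its copies are near-identical, so its count is uncertain. With 1 library left out, 8 to 10 genes of the list were called lower.

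The promoters of Hspa8 and Hsph1 are shown because both hold a heat shock element, 3 alternating GAA and TTC units 2 bases apart, which HSF1 binds. They are the 250 bases before the gene start in GRCr8, at chr8:50080264-50080513 for Hspa8 and chr12:10427118-10427367 for Hsph1, both on the plus strand, with the element in capitals.
Hspa8: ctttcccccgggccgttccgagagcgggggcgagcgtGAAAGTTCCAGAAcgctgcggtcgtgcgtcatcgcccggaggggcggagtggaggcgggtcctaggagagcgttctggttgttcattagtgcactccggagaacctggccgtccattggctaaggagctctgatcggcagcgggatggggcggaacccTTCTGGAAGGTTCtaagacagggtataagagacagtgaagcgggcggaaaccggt
Hsph1: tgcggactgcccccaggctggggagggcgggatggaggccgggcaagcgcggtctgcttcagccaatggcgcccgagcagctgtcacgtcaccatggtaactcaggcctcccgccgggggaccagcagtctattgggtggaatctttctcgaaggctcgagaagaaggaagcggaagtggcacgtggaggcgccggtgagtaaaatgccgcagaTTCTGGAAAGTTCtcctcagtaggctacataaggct
Hspa8 holds 2 elements between 213 and 43 bases before the start and Hsph1 holds 1, from 36 to 24 bases before it. Of the 11 genes that fell, 9 had a promoter in the table and 3 held an element, Hspa8, Hsph1 and Hspd1, while 0.66% of all promoters of this length and 0.44% of the tested genes with a promoter did. Over the whole list, 4 of the 23 members with a promoter held an element. Whether the element goes with the fall was not tested.

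Endoplasmic reticulum chaperones, which fold secreted and membrane proteins and are induced by the unfolded protein response, rose in part. Of 24 genes 8 rose and none fell, against 2.03% and 1.72% of all genes, with a median of 0.12. Hspa5, the lumenal Hsp70 known as BiP, stood at 1572, 1499.9 and 1622 CPM with sORF8, against 1323, 1327 and 1327 CPM with its control virus, a change of 0.24 ± 0.03 (edgeR, adjusted p = 1.15e-04). Hyou1, its large lumenal relative, had 331, 324 and 341 CPM with sORF8, against 274, 275 and 282 CPM with its control virus and changed by 0.26 ± 0.03 (edgeR, adjusted p = 1.11e-04). For Hyou1 the sORF8 libraries lay above every control library of the series, the other controls being at 276 to 303 CPM, whereas for Hspa5 they overlapped the other controls, at 1427 to 1519 CPM. Sdf2l1, a partner of BiP, and Pdia4, a disulfide isomerase, changed by 0.45 ± 0.07 and 0.23 ± 0.04 (edgeR, adjusted p = 0.00114 and 0.00626). The other risers were Herpud1, Edem1, Hsp90b1 and Pdia6, at 0.15 to 0.21. Without sORF8 library 3 the count was 5. The integrated stress response, a parallel arm that acts through ATF4, gave 1 gene that fell, the seryl-tRNA synthetase Sars, and none that rose among 26, with a median of -0.06.

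Antioxidant genes, many of them targets of the transcription factor NRF2, fell in part. Of 33 genes 9 fell and 1 rose, against 1.72% and 2.03% of all genes, with a median of -0.11. Gstp1, the pi-class glutathione transferase (gene ID 24426, chromosome 1 from 219262166 to 219294966 in Rnor_6.0), had 172, 168 and 176 CPM with sORF8, against 263, 258 and 268 CPM with its control virus. This fall of 0.62 ± 0.04 on the log2 scale had the smallest adjusted p of the comparison (edgeR, 4.50e-08), and the other controls stood lower still, at 84.9 to 102 CPM. Srxn1, sulfiredoxin, which repairs oxidised peroxiredoxins, had 56.9, 60.6 and 60.1 CPM with sORF8, against 86.8, 85.4 and 87.9 CPM with its control virus and changed by -0.55 ± 0.06 (edgeR, adjusted p = 1.64e-05), beside 15.01 to 20.2 CPM in the other controls. Txnrd1, thioredoxin reductase, had 267, 265 and 268 CPM with sORF8, against 307, 315 and 332 CPM with its control virus and Sqstm1, the autophagy adaptor p62, had 303, 315 and 308 CPM with sORF8, against 373, 367 and 392 CPM with its control virus. Their changes were -0.25 ± 0.03 and -0.29 ± 0.05 (edgeR, adjusted p = 1.77e-04 and 0.00285). For each of these 4 genes the order was the same: highest in the sORF8 control, next with sORF8, lowest in the other controls. The sORF8 control libraries enter both comparisons and the genes were picked by the change with sORF8, so this order is not a separate result. Nqo1, Hmox1, Gstm1, Gsr and Taldo1 fell too, by 0.21 to 0.45, with Gstm1 in a family of similar genes, and Abcc4, an efflux transporter, rose by 0.28 ± 0.06 (edgeR, adjusted p = 0.00833). With 1 library left out, 6 to 9 genes of the list were called lower.

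The promoter of Gstp1 is shown for its antioxidant response element, TGACNNNGC, the site NRF2 binds with small MAF proteins, in capitals between 61 and 53 bases before the gene start. It covers the 250 bases before the start at chr1:210769706-210769955, minus strand, in GRCr8.
Gstp1: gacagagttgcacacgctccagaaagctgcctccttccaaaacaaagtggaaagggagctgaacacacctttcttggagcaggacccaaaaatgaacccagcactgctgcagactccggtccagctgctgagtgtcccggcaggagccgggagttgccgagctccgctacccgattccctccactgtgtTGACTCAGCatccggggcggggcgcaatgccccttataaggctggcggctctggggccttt
The motif stood in 2 of the 7 genes that fell and had a promoter in the table, Gstp1 and Txnrd1. Over the whole list, 7 of the 27 members with a promoter held it. On either strand it was found in 10.1% of all promoters of this length and in 13.0% of the tested genes with a promoter, and it overlaps the core of AP-1 sites when a TCA follows its first 4 bases.

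**Figure D4:**
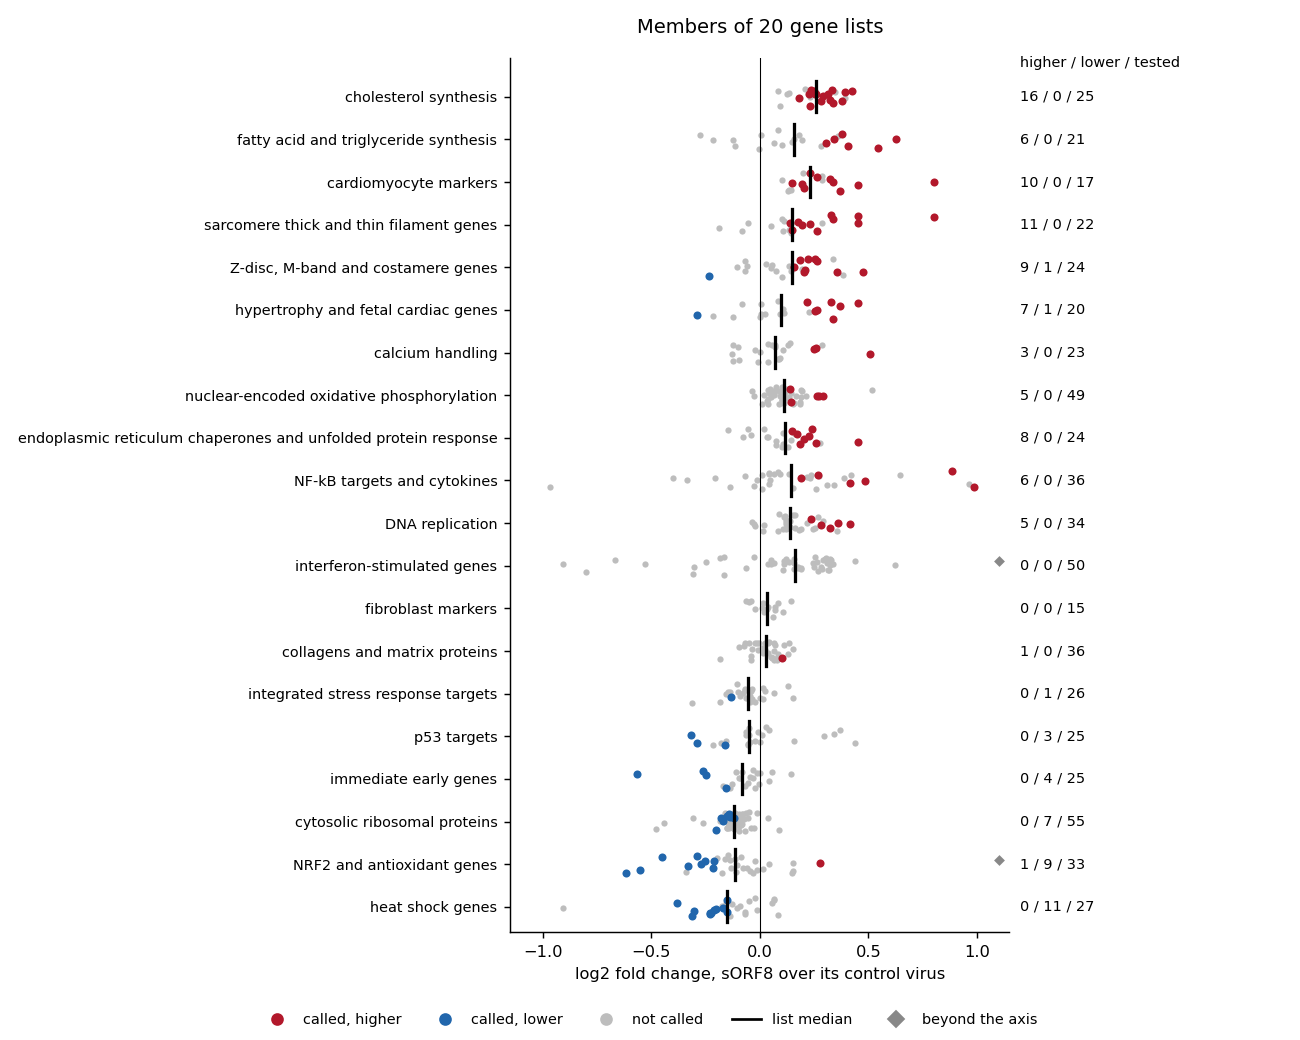
Each point is a tested member of 1 of 20 gene lists, placed by its log2 fold change of sORF8 over its control virus on the horizontal axis; red and blue points were called higher and lower, grey points were not called, black bars are list medians, and the numbers at the right count members higher, lower and tested. Cholesterol synthesis lies wholly to the right of 0, heat shock and antioxidant genes mostly to the left, and diamonds mark 2 members beyond the axis.

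Ribosomal protein genes mostly lay slightly below their level with the control virus. Of 55 measured genes for cytosolic ribosomal proteins, 7 fell and none rose, against 1.72% and 2.03% of all genes. A log2 fold change below 0 was found in 53 of the 55, and the median was -0.12. Rps2 had 1565, 1517 and 1584 CPM with sORF8, against 1782, 1761 and 1819 CPM with its control virus, a change of -0.20 ± 0.04 (edgeR, adjusted p = 0.0102), and Rps3, Rpl7, Rpl4, Rpl7a, Rpl6 and Rpl3 fell by 0.12 to 0.18. Ribosomal protein genes have many processed copies, so their counts are uncertain. The count depended on the libraries: it was 3, 0 and 2 without sORF8 library 1, 2 or 3, 1, 1 and 0 without control library 1, 2 or 3, and 26 in a fit to the 6 libraries alone. Translation factors gave 3 genes that fell and none that rose among 33. These were Eif5, an initiation factor, with 419, 438 and 424 CPM with sORF8, against 496, 530.5 and 516 CPM with its control virus and a change of -0.27 ± 0.04 (edgeR, adjusted p = 4.63e-04), and the elongation factors Eef1b2 and Eef1a1, by -0.22 ± 0.05 and -0.12 ± 0.03 (edgeR, adjusted p = 0.0192 and 0.0258). The list held 1, 1 and 3 genes called lower without sORF8 library 1, 2 or 3 and 2, 2 and 1 without control library 1, 2 or 3; Eef1b2 was not called without sORF8 library 1 or 2 or control library 1 or 3 (edgeR, adjusted p up to 0.123), nor Eef1a1 without sORF8 library 1 or 2 or any 1 of the control libraries (edgeR, adjusted p up to 0.128).

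The immediate early genes that passed the test were lower with sORF8. Of 25 immediate early genes, which growth stimuli switch on within minutes, 4 fell and none rose, against 1.72% and 2.03% of all genes. The list median was -0.08. Fosl1, an AP-1 subunit, had 10.2, 11.2 and 10.6 CPM with sORF8, against 15.2, 16.6 and 15.6 CPM with its control virus, a change of -0.57 ± 0.10 (edgeR, adjusted p = 0.0028). Klf6 had 132, 133 and 129 CPM with sORF8, against 159, 160.1 and 153 CPM with its control virus and changed by -0.26 ± 0.04 (edgeR, adjusted p = 9.67e-04). The sORF6 and sORF7 controls stood below sORF8, at 5.87 to 8.47 CPM for Fosl1 and 106 to 119 for Klf6. Myc and Klf4 fell by 0.25 ± 0.06 and 0.15 ± 0.04, with adjusted p of 0.035 and 0.0492 in edgeR. With sORF8 Myc stood at 58.5 to 66.6 CPM, above the 39.0 to 45.3 CPM of the other controls. Klf4 at 76.5 to 77.3 CPM overlapped them, at 71.5 to 78.1 CPM. Myc was not called without sORF8 library 1 or 3 or control library 2 or 3 (edgeR, adjusted p up to 0.179), and Klf4 lost its call on leaving out any 1 of the 6 libraries (adjusted p up to 0.172). The list count was 2, 3 and 2 without sORF8 library 1, 2 or 3 and 3, 2 and 2 without control library 1, 2 or 3. None of 17 MAPK feedback genes was called. Of 25 p53 targets 3 fell and none rose: Aen, a nuclease, by -0.31 ± 0.05, Perp, a membrane protein of desmosomes, by -0.29 ± 0.04, and Cdkn1a, the cell cycle inhibitor p21, by -0.16 ± 0.03 (edgeR, adjusted p = 6.88e-04, 1.77e-04 and 0.0104). Cdkn1a was not called without sORF8 library 2 or control library 3 (edgeR, adjusted p up to 0.0818). Rgs2, which dampens signalling from Gq-coupled receptors such as the one for PE, was 1 of 2 called genes among 25 for adrenergic signalling, with 71.6, 73.1 and 73.4 CPM with sORF8, against 89.1, 90.02 and 91.99 CPM with its control virus, a change of -0.31 ± 0.05 (edgeR, adjusted p = 3.91e-04). The phosphodiesterase Pde4b, the other, rose by 0.25 ± 0.06 (edgeR, adjusted p = 0.0319).

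A few cell cycle genes rose. Of 34 DNA replication genes 5 rose and none fell, with a median of 0.14, and of 35 mitotic genes 2 rose, Hmmr and Anln, with a median of 0.16. Among all genes 2.03% rose and 1.72% fell. Rrm2, the ribonucleotide reductase subunit that supplies deoxynucleotides, had 73.99, 69.2 and 73.5 CPM with sORF8, against 55.6, 55.8 and 62.02 CPM with its control virus, a change of 0.32 ± 0.06 (edgeR, adjusted p = 0.00597), beside 110.0 to 129 CPM in the other controls. E2f1, Mcm5, Pole and Uhrf1 changed by 0.24 to 0.42. The count was 4, 3 and 2 without sORF8 library 1, 2 or 3 and 3, 1 and 3 without control library 1, 2 or 3.

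A few inflammatory genes rose. Of 36 NF-kB targets and cytokines 6 rose and none fell, against 2.03% and 1.72% of all genes, with a median of 0.14. Il1b, which encodes interleukin-1 beta, had 4.08, 4.50 and 4.23 CPM with sORF8, against 2.18, 2.23 and 2.51 CPM with its control virus, a change of 0.89 ± 0.19 (edgeR, adjusted p = 0.0093). Nos2, the inducible nitric oxide synthase, had 16.02, 16.3 and 13.2 CPM with sORF8, against 10.1, 5.46 and 7.40 CPM with its control virus, a change of 0.99 ± 0.24 (edgeR, adjusted p = 0.0247). Cxcl1, a neutrophil chemokine, and Nfkb1, an NF-kB subunit, changed by 0.48 ± 0.11 and 0.19 ± 0.04 (edgeR, adjusted p = 0.017 and 0.0192), and Vcam1 and Ccl20 by 0.27 ± 0.07 and 0.42 ± 0.11 (edgeR, adjusted p = 0.0307 and 0.0427). With sORF8 Nfkb1 stood at 105 to 106 CPM, below the 118 to 126 CPM of the sORF6 and sORF7 controls. Cxcl1 at 25.4 to 27.8 CPM and Nos2 overlapped those controls, at 20.8 to 27.9 and 8.29 to 15.6 CPM. Il1b lay above their 2.29 to 3.16 CPM. Of these, Il1b kept its call without any 1 library, while Nos2 and Cxcl1 were not called without sORF8 library 1 or 2 or control library 2 or 3 (adjusted p up to 0.122 and 0.0931). Nfkb1 was called without control library 2 but not without any of the other 5 (adjusted p up to 0.0921). For the list the count was 1, 1 and 4 without sORF8 library 1, 2 or 3 and 3, 3 and 1 without control library 1, 2 or 3. Further inflammatory genes stood among the 15 largest rises: Cxcl3, another chemokine, with 11.8, 12.2 and 10.4 CPM with sORF8, against 5.91, 7.01 and 6.33 CPM with its control virus, a change of 0.83 ± 0.15, Ccl3 with 0.86 ± 0.16, and Srgn and Plek, 2 genes of blood cells, with 0.92 ± 0.22 and 0.83 ± 0.18 (edgeR, adjusted p = 0.00357, 0.00414, 0.0211 and 0.0104). Srgn was not called without sORF8 library 1 or 2 or control library 1 or 2, and Plek was not called without sORF8 library 2 or control library 1 (edgeR, adjusted p up to 0.117 and 0.0657). Leukocyte markers stood at 154 to 191 CPM with sORF8 and 153 to 161 CPM with the control virus in sum, ranges that overlap, and their part in these rises was not tested. Lcn2 and Ccl2 did not pass, with 0.26 ± 0.09 and 0.27 ± 0.10 (edgeR, adjusted p = 0.111 and 0.154). None of 50 interferon-stimulated genes was called in either direction.

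Matrix genes showed little change. Of 36 collagens and matrix proteins 1 rose, Sparc, by 0.10 ± 0.03 (edgeR, adjusted p = 0.0366). Among 24 metalloproteinases and inhibitors Mmp9, Mmp12 and Adam19 rose by 0.61 ± 0.15, 0.78 ± 0.21 and 0.14 ± 0.04 (edgeR, adjusted p = 0.0288, 0.0463 and 0.0257), and Adamts1 fell by 0.36 ± 0.05 (edgeR, adjusted p = 4.77e-04). At most 1 of the 3 rises, found without sORF8 library 3, was left when any 1 library was left out. Mmp16, a membrane-bound metalloproteinase that was not on the list, fell more, with 42.1, 40.1 and 41.8 CPM with sORF8, against 62.3, 68.1 and 70.7 CPM with its control virus, a change of -0.70 ± 0.09 (edgeR, adjusted p = 1.15e-04), and the other controls at 18.7 to 23.8 CPM. In the list of 23 TGF-beta, SMAD and YAP genes 2 rose and 2 fell, and the median was 0.00. The ligands Tgfb2 and Tgfb3 rose by 0.19 ± 0.04 and 0.17 ± 0.03, and Inhba, an activin subunit, and Ski, a repressor of SMADs, fell by 0.30 ± 0.07 and 0.12 ± 0.03 (edgeR, adjusted p = 0.00459, 0.00845, 0.0123 and 0.0499). Tgfb2 kept its call without any 1 library. Tgfb3 was not called without sORF8 library 1 or control library 3, Inhba without sORF8 library 1, and Ski without sORF8 library 1 or 2 or control library 1 or 3 (edgeR, adjusted p up to 0.0624, 0.0815 and 0.226). The 44 lists held 1034 different tested genes, of which 93 rose and 48 fell, beside 2.03% and 1.72% of all genes tested. The lists were chosen with earlier results of these data known, so a larger share on them is not a separate result. In 9 lists no member was called.

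The largest falls among the genes named by the rule were in genes outside these lists. Nell2, a secreted glycoprotein first known from neurons, had 16.7, 19.1 and 17.6 CPM with sORF8, against 45.2, 46.4 and 45.1 CPM with its control virus, a change of -1.36 ± 0.12 (edgeR, adjusted p = 1.59e-06). Bpifb4 (gene ID 499925, chromosome 3 from 149424392 to 149449350 in Rnor_6.0) had 2.37, 2.86 and 3.25 CPM with sORF8, against 10.1, 10.98 and 11.6 CPM with its control virus, a change of -1.94 ± 0.17 (edgeR, adjusted p = 1.59e-06), and Bpifb1 of the same family had 6.70, 4.38 and 5.65 CPM with sORF8, against 11.6, 12.9 and 11.1 CPM with its control virus, a change of -1.09 ± 0.18 (edgeR, adjusted p = 0.00131). In all 3 genes the sORF8 libraries lay between its control and the other controls, which stood at 4.39 to 7.60, 0.406 to 0.525 and 2.85 to 4.18 CPM. Kdm1a, the histone demethylase LSD1, had 124, 123 and 123 CPM with sORF8, against 176, 174 and 178 CPM with its control virus, a change of -0.51 ± 0.04 (edgeR, adjusted p = 4.34e-07), and Twsg1, a modulator of BMP signalling, had 132, 134 and 137 CPM with sORF8, against 177, 178 and 172 CPM with its control virus, a change of -0.39 ± 0.04 (edgeR, adjusted p = 2.19e-06). Both were lowest in the other controls, at 76.95 to 84.1 and 75.3 to 84.7 CPM. Anxa3, an annexin, fell by 0.70 ± 0.09 and Efnb2, the ligand ephrin-B2, by 0.52 ± 0.09 (edgeR, adjusted p = 8.84e-05 and 0.00245).

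A few rises stood clear of every control library in the series. Hr, a transcriptional corepressor named for the hairless mouse (gene ID 60563, chromosome 15 from 52241801 to 52261276 in Rnor_6.0), had 35.7, 33.6 and 31.4 CPM with sORF8, against 18.4, 20.9 and 19.6 CPM with its control virus, a change of 0.77 ± 0.08 (edgeR, adjusted p = 1.64e-05), and the other controls were at 18.8 to 23.1 CPM. Tp53inp2, a protein of autophagy, had 721, 689.6 and 701 CPM with sORF8, against 565, 576 and 576 CPM with its control virus, a change of 0.30 ± 0.03 (edgeR, adjusted p = 1.59e-05), with the other controls at 623 to 661 CPM. Itga9, an integrin subunit, had 267, 281 and 275 CPM with sORF8, against 202, 201 and 187 CPM with its control virus, a change of 0.48 ± 0.04 (edgeR, adjusted p = 1.59e-06), but there the other controls overlapped sORF8 at 252 to 287 CPM. Abcb9, a lysosomal peptide transporter, had 9.93, 10.4 and 11.2 CPM with sORF8, against 5.41, 5.40 and 6.65 CPM with its control virus, a change of 0.85 ± 0.13 (edgeR, adjusted p = 6.89e-04), overlapping the other controls at 5.87 to 10.5 CPM. Angpt2, Atp2b2, Ap3m2, Gpr137c and Nudt14 were also among the 15 largest rises, at 0.73 to 0.91 and under 7 CPM in each of the 6 libraries. All 5 calls were lost without sORF8 library 1, and Ap3m2 lost its call without any 1 of the 6 libraries (edgeR, adjusted p up to 0.191, 0.136, 0.169, 0.0766 and 0.062). Angpt2 kept its call only without control library 2 and Atp2b2 only without control library 1, while Gpr137c was not called without control library 3 and Nudt14 without control library 2.

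Of the 11 called genes that changed at least 2-fold, 8 fell and 3 rose, and Nell2, Bpifb4 and Bpifb1 are described above. Nupr1l1 had 0 counts in the 3 sORF8 libraries and 20, 30 and 30 in the control libraries, which put it at least 27.2-fold lower, with 3 counts over the group taken as the limit that a count of 0 allows. In the other controls it ran from 0 to 1.17 CPM. Mael, Fam84a, Psmb11 and Fsip1 fell by 1.02 to 2.11 on the log2 scale, and Vat1l and Epyc rose by 1.28 and 1.35, all at under 3 CPM in each of the 6 libraries. LOC100359687 rose by 1.98, with 17.1, 20.9 and 14.1 CPM with sORF8, against 6.85, 0 and 6.33 CPM with its control virus, and 1 control library was at 0.

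The change with sORF8 differed from that with the other reading frames for part of the transcriptome. Testing the difference of the 2 changes in the same edgeR model, 548 genes (3.69%) responded otherwise to sORF8 than to sORF6, 419 of them with a more positive change for sORF8 (2.82%) and 129 with a more negative one (0.868%). Against sORF7 there were 1148 such genes (7.72%), 583 more positive (3.92%) and 565 more negative (3.80%), a split that became 376 and 792 with limma on log2(FPKM + 1). The 5 genes named for the smallest p of the difference from sORF6 were inflammatory. Cxcl3 changed by 0.83 ± 0.15 with sORF8 and by -2.73 ± 0.20 with sORF6, a difference of 3.57 ± 0.26 (edgeR, adjusted p = 1.76e-07), and Ccl3, Cxcl1, Ccl2 and Lcn2 differed by 1.64 to 3.21 in the same sense. For 46 of 50 interferon-stimulated genes the change was more positive with sORF8 than with sORF6 and for 24 of 50 it was more negative than with sORF7. No gene of that list was called with sORF8, 46 were lower with sORF6, where 3.85% of all genes were called (0.968% higher and 2.88% lower), and 47 were higher with sORF7, where 7.77% were (4.12% higher and 3.66% lower). The list's median log2 fold change was 0.16 with sORF8, -1.90 with sORF6 and 0.90 with sORF7. The list summed to 1059 to 1487 CPM with sORF8, 1105 to 1258 with its control virus and 2144 to 3603 in the other controls. Of its 50 genes, 48 were lower in the sORF8 control than in the other controls, beside 21.3% of all genes (edgeR, adjusted p under 0.05). The part of this lower starting level in the differences was not tested.

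Myosin and natriuretic peptide genes divided the 3 experiments differently. Myh6 changed by 0.80 ± 0.07 with sORF8, by -0.32 ± 0.07 with sORF6 and by 0.20 ± 0.07 with sORF7, and sORF8 differed from both (difference 1.12 ± 0.10 from sORF6 and 0.60 ± 0.10 from sORF7, edgeR, adjusted p = 2.15e-06 and 0.00103). Nppa changed by 0.37 ± 0.05 with sORF8, 0.34 ± 0.05 with sORF6 and -0.34 ± 0.05 with sORF7. Its difference from sORF6 was 0.03 ± 0.08 and did not pass (edgeR, adjusted p = 0.916), which does not show that the 2 act alike, while the difference from sORF7 was 0.71 ± 0.08 (edgeR, adjusted p = 1.06e-05). Myh7 gave a like pattern, with differences of 0.09 ± 0.09 from sORF6 and 0.80 ± 0.09 from sORF7 (edgeR, adjusted p = 0.719 and 8.38e-06). Of 22 sarcomere genes 16 were more positive with sORF8 than with sORF7, beside 3.92% of all genes. Against sORF6, 4 were more positive and 1 more negative, beside 2.82% and 0.868% of all genes. With sORF7 over its own control 7 of the 22 were called lower and none higher, beside 3.66% and 4.12% of all genes. The list median there was -0.15.

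Fdps, Scd, Scd2 and Hspa8 changed otherwise with sORF8 than with either other reading frame. Fdps changed by 0.43 ± 0.05 with sORF8, 0.03 ± 0.04 with sORF6 and -0.33 ± 0.04 with sORF7 (edgeR, adjusted p of the differences = 5.80e-04 and 5.18e-07). Over the cholesterol list 9 of 25 genes were more positive than with sORF6 and 21 of 25 more positive than with sORF7, beside 2.82% and 3.92% of all genes. With sORF7 over its own control 19 of the 25 were called lower and none higher, beside 3.66% and 4.12% of all genes. The list median there was -0.23. Scd and Scd2 also passed against both, with differences of 0.52 ± 0.08 and 0.34 ± 0.05 from sORF6 and 1.05 ± 0.09 and 0.74 ± 0.05 from sORF7 (edgeR, adjusted p = 7.72e-04, 1.52e-04, 4.91e-07 and 3.45e-08). Hspa8 changed by -0.38 ± 0.03 with sORF8, 0.05 ± 0.03 with sORF6 and -0.07 ± 0.03 with sORF7 (edgeR, adjusted p of the differences = 1.02e-05 and 3.85e-04). Over the heat shock list 4 of 27 genes were more negative than with sORF6, beside 0.868% of all genes. Against sORF7 9 were more negative and 1 more positive, beside 3.80% and 3.92% of all genes. Gstp1 changed by -0.02 ± 0.04 with sORF6 and 0.30 ± 0.04 with sORF7, and its difference of -0.92 ± 0.05 from sORF7 had the smallest adjusted p of that contrast (edgeR, 2.51e-08). Scd2, Bpifb4, Kdm1a and Myom1 were next by p, with differences of 0.74 ± 0.05, -3.87 ± 0.28, -0.75 ± 0.06 and 0.67 ± 0.05 from sORF7 (edgeR, adjusted p = 3.45e-08, 2.04e-07, 2.04e-07 and 2.04e-07); Bpifb4 was under 1 CPM in the sORF7 control. Tp53inp2 and Srl rose with sORF8 beyond their change in either other experiment, by 0.29 ± 0.04 and 0.27 ± 0.04 for Tp53inp2 and by 0.40 ± 0.04 and 0.48 ± 0.04 for Srl (edgeR, adjusted p = 4.77e-04, 8.46e-04, 6.44e-06 and 6.18e-07). For Hr the difference was 1.02 ± 0.12 from sORF6 and passed (edgeR, adjusted p = 2.24e-05), and 0.32 ± 0.12 from sORF7 and did not (edgeR, adjusted p = 0.112).

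**Figure D5:**
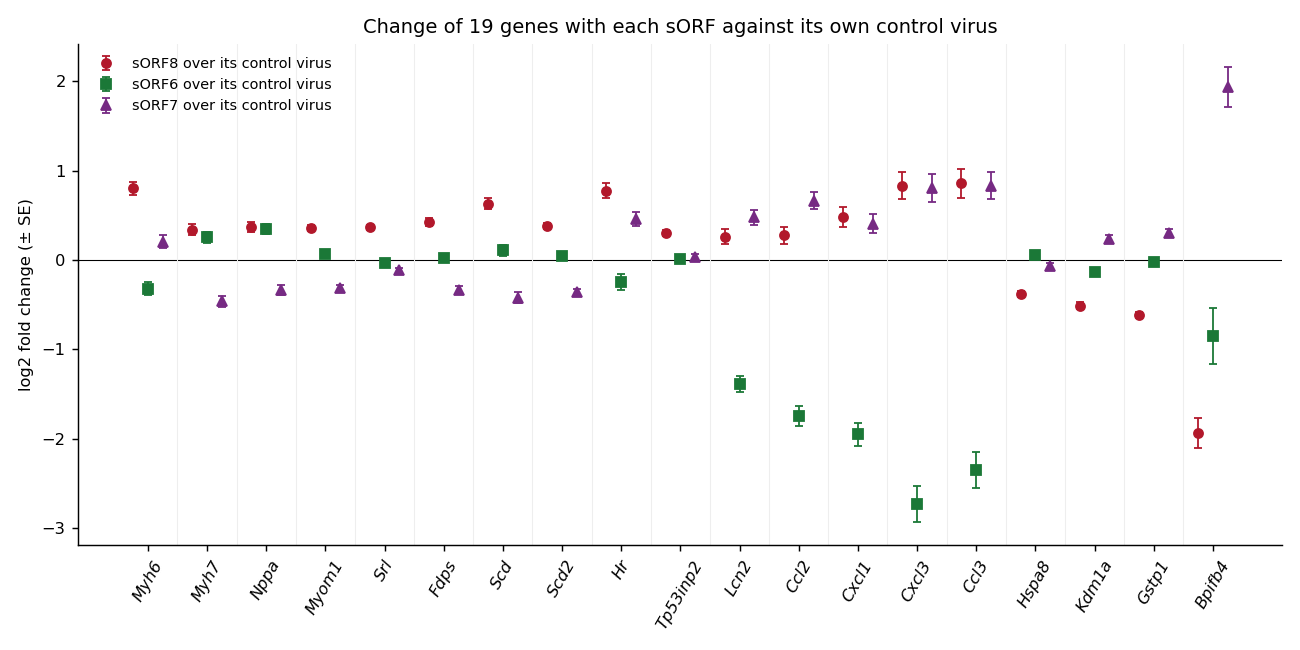
Log2 fold change of 19 genes with sORF8 (circles), sORF6 (squares) and sORF7 (triangles), each over its own control virus, with SE bars from the edgeR fit to 18 libraries. Fdps, Scd, Myh6 and Myom1 sit highest with sORF8, the inflammatory genes from Lcn2 to Ccl3 are far below 0 with sORF6 alone, and Bpifb4 runs from -1.94 with sORF8 to 1.93 with sORF7.

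The authors' deposited table holds q-values for 17763 genes in this comparison and puts 4030 under 0.05, 1677 higher and 2353 lower with sORF8, and 272 of these at least 2-fold. All 558 genes called here are among the 4030. Called counts fell when libraries were left out. For sORF8 against its control virus 333, 264 and 382 genes were called without sORF8 library 1, 2 or 3 and 361, 331 and 304 without control library 1, 2 or 3, of which 261 to 351 were among the 558.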

How the data were processed

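RNA of 18 libraries was sequenced on a BGIseq platform, per the labels, and the submitters' processing notes name HISAT2 2.0.4, RSEM 1.2.12, DESeq2 1.4.5 and the rat build Rnor_6.0. The table deposited by the authors holds estimated counts per gene and library from the authors' counting, FPKM values normalised by the authors for length and depth, and the authors' log2 fold changes with p-values and q-values in columns headed degseq. The q-values were only counted, as the authors' deposited table. No source used here says whether counting used strand, so antisense and overlapping genes are uncertain.

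Estimated counts were rounded (27.1% of values were not whole), scaled by TMM and filtered with filterByExpr, and all 18 libraries were fitted with 1 mean per group by the quasi-likelihood method of edgeR 4.0.16 in R 4.3.3. This left 12 residual degrees of freedom and a biological coefficient of variation of 6.90%. Tests were two-sided with Benjamini-Hochberg adjustment over 14870 genes, and a gene with an adjusted p under 0.05 was called. CPM in the text are TMM-scaled, ± is SE of a log2 fold change, and SE was taken from the F statistic. Alternatives used RLE scaling, other filters, DESeq2 1.42.0, limma 3.58.1 on log2(FPKM + 1) and log2(FPKM + 0.1), a replicate block and left-out libraries. The scripts were checked on simulated counts. Promoters came from RefSeq (GRCr8), whose build differs from that of the files, and motifs were searched on both strands. Matching used symbols, and 5 symbols were carried by 2 genes.

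Genes, lists and tests were chosen with earlier results of these data known. The 15 largest rises and falls and the 10 smallest adjusted p in each direction were named under 4 limits. Such genes were called, did not overlap between groups, averaged at least 1 on the log2 CPM scale and had a settled symbol. Acta1, Atp2a2, Myh6, Myh7, Nppa and Nppb were named whatever their result. Each list with at least 3 called members added the 4 called members with the smallest p. The 5 smallest p of each difference between experiments needed only the level and symbol limits. Acta1, Lcn2 and Ccl2 were therefore named without being called. Further list members, Hspa1a, the genes changed at least 2-fold and 9 genes in the differences were named after their values were seen. Some genes that the rule or a list takes are not reported here. The SE holds the spread among libraries as well as counting error. The floor given for Nupr1l1 covers counting error only.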

Additional observations from a re-analysis of the deposited data

Results flagged for a closer look

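These results stood out because the change with sORF8 differed from the change with another reading frame, by a test of the difference itself in edgeR over all 14870 genes. The test called 548 genes against sORF6 and 1148 against sORF7, which makes differences common, and the genes below are those of the naming rule and 9 chosen after their values were seen.

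Against sORF6, the difference in log2 fold change was 3.57 for Cxcl3, 3.21 for Ccl3, 2.43 for Cxcl1, 2.02 for Ccl2 and 1.64 for Lcn2, all chemokine or acute-phase genes. It was 1.12 for Myh6, 1.02 for Hr, 0.52 for Scd, 0.40 for Fdps, 0.40 for Srl and 0.29 for Tp53inp2. Hspa8 alone of these was more negative with sORF8, by -0.43.

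Against sORF7, lipid synthesis genes gave differences of 1.05 for Scd, 0.76 for Fdps and 0.74 for Scd2. Muscle genes gave 0.80 for Myh7, 0.71 for Nppa, 0.67 for Myom1, 0.60 for Myh6 and 0.48 for Srl, and Tp53inp2 gave 0.27. More negative with sORF8 were Bpifb4 by -3.87, Gstp1 by -0.92, Kdm1a by -0.75 and Hspa8 by -0.31.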

How the results depend on the processing

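For sORF8 against its control virus, the count of called genes was 264 to 382 with 1 library left out and 865 in a fit to the 6 libraries alone, against 558 as reported. Without the 2 control libraries of other experiments that stood apart, a setting chosen after seeing the data, it was 988. Called list members numbered 83 to 102 with 1 library left out, 227 in the 6-library fit and 232 without those 2 control libraries, against 141 as reported. RLE scaling (547), no filter (483), a filter at 1 CPM (573), DESeq2 (649) and limma with either pseudocount (543 and 534) kept the count within 1.5 times, and RLE moved the median of all genes to -0.0017 on the log2 scale, from 0.0005. The split turned in limma, with 256 higher and 287 lower on log2(FPKM + 1) and 259 and 275 on log2(FPKM + 0.1). As reported it was 302 higher and 256 lower. The counts of differences from sORF6 (409 to 459) and sORF7 (849 to 956) also stayed within 1.5 times with 1 library left out.

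Of 100 named genes that were called, 65 kept the call with any 1 library left out and 65 in every alternative that gave an adjusted p (DESeq2 gave none for 8), and none changed sign. The deviations of same-numbered libraries from their group means correlated at -0.05, 0.17 and -0.11 in the sORF8 experiment. They correlated at 0.25, 0.18 and 0.03 in the sORF6 experiment and at 0.01, 0.09 and 0.02 in the sORF7 experiment. With 3 libraries per group these values cannot decide whether the numbers pair the libraries. With the replicate block 459 genes were called, 494 for the difference from sORF6 and 1062 for that from sORF7, and 134 list members.

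Limits: 3 libraries per group, a delivered reading frame that could not be checked, a control group set apart from the other controls, and few counts behind genes under about 1 CPM.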

Other observations

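Several further gene groups held at most 2 genes called with sORF8, where 3.75% of all genes were called. Of 35 autophagy and lysosome genes 1 rose, the protease Ctsd, by 0.15 ± 0.04, and 1 fell, Sqstm1, already counted among the antioxidant genes. Of 27 cardiac transcription factors Tbx20 rose by 0.28 ± 0.06 and Tbx18 fell by 0.30 ± 0.07, and Gata4 did not pass, with 379.7, 379 and 371 CPM with sORF8, against 350.0, 340.2 and 355 CPM with its control virus (edgeR, adjusted p = 0.0168, 0.0285 and 0.0692). Of 34 proteasome subunits only Psma3 was called, by -0.17 ± 0.04, and of 19 muscle ubiquitin ligase and FOXO genes only Cited2, by -0.18 ± 0.04. Of 17 glucocorticoid targets and metallothioneins only Glul, glutamine synthetase, was called, by -0.20 ± 0.04, and of 9 aryl hydrocarbon receptor targets only Nqo1, with a list median of -0.24. Of 17 complement genes only Masp1 was called, by 0.28 ± 0.06. None of 18 hypoxia targets and 19 circadian clock genes was called.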
